A study of Mus musculus with 24 samples.

Results

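The 8 genes described here are the receptors of the colony-stimulating factors and the ligands of those receptors: the receptor genes Csf1r, Csf2ra, Csf2rb, Csf2rb2 and Csf3r, and the ligand genes Csf1, Il34 and Csf2. They were chosen by name, for their link to the factors in the culture media, and are 8 of the 45706 genes listed in the count table. All 8 were matched to the table by Ensembl identifier.

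CSF1R is the receptor tyrosine kinase on which most tissue-resident macrophages (TRMs) depend for survival, and it is bound by M-CSF, the product of Csf1, and by IL-34, which sustains microglia in the brain. GM-CSF, the product of Csf2, binds a receptor made of a ligand-specific alpha chain (Csf2ra) and a common beta chain (Csf2rb) that signals through JAK2 and STAT5, and alveolar macrophages need it to develop. The mouse has a second beta chain gene, Csf2rb2, whose product pairs with the IL-3 receptor alpha chain, and Csf3r encodes the receptor of G-CSF, known best from neutrophils.

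RNA was sequenced from microglia (MG), Kupffer cells (KC), peritoneal macrophages (PM) and alveolar macrophages (AM), either sorted from the organ (ex vivo) or grown from the same organ as TRM-like cells (MG-LC, KC-LC, PM-LC and AM-LC, in vitro), with 3 libraries in each of 8 groups. All 24 libraries came from unmodified female C57BL/6J mice labelled as 8 to 12 weeks old. KC-LCs and PM-LCs were grown with M-CSF and MG-LCs with M-CSF and IL-34, all at low oxygen and high glucose, while AM-LCs received GM-CSF in a medium lacking glucose, at atmospheric oxygen. For AM-LCs the factor, oxygen, glucose and tissue therefore cannot be told apart, and for MG-LCs IL-34 and tissue cannot. Sorting was on CD45 and CD11b for MG, on these with the Adgre1 protein and TIM-4 for KCs, with the Adgre1 protein and CD115 for PMs, and with SiglecF for AMs. CD115 is the protein of Csf1r, so the stain for PMs involved 1 of the genes described. The cultures were unsorted organ suspensions on a coated surface, from several pooled mice for brain, lung and peritoneum. The series calls its libraries biological replicates but does not say which mice went into which library, so the p-values measure the spread between these libraries.

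Between 29569486 and 47105111 reads were counted per library, and 3 reads, taken as the limit of detection, corresponded to 0.0659 to 0.112 CPM (read counts scaled to library size, with edgeR's TMM factors over the 24 libraries). This limit covers counting error only. Each sorted population was the highest of the 8 groups for the summed CPM of its own 6 identity genes (MG 23904 to 24658, KCs 15093 to 26555, PMs 8131 to 9112, AMs 21279 to 24348). In culture these sums were 519.8 to 3466 in MG-LCs, 902 to 1205 in KC-LCs, 81.4 to 107 in PM-LCs and 2711 to 10002 in AM-LCs, so all 4 cultures lay below their sorted cells. The cultured labels were less distinct by these genes: PM-LCs held less of the peritoneal sum than sorted KCs (302 to 408 CPM), and the Kupffer cell sum of KC-LCs lay within the range of MG-LCs (684 to 2335 CPM). RNA of 8 fibroblast and mesothelium genes, among them Col1a1 and Col3a1, summed to at most 23.9 CPM in any sorted library. It stood at 31829 CPM in MG-LC replicate 1, 2202 in PM-LC replicate 2 and 1715 in AM-LC replicate 3. These 3 libraries are called fibroblast-rich below, and results that rest on them are also given without them. That alternative was chosen after the data were seen. It keeps MG-LC replicate 3, at 1023 CPM, and PM-LC replicate 3, at 370 CPM. In bulk RNA, fewer cells of a type and less RNA per cell cannot be told apart.

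Csf1r was per kilobase of exon the most abundant of the 8 transcripts in MG, KCs and PMs, and its level fell stepwise from MG to KCs, PMs and AMs. The gene lies on chromosome 18 at 61100598 to 61132149 of the plus strand (mm10), and 873 bases of its exons overlap Hmgxb3 on the opposite strand, so part of its reads could belong to that gene in libraries that do not mark strand. Sorted MG gave 14492, 14171 and 12948 CPM, KCs 4182, 7029.9 and 10195, PMs 2181, 2937 and 2125, and AMs 535, 533 and 519. No library of one sorted population overlapped the next in this order. Sorted MG stood 2.70 ± 0.20 (SE) log2 units above the mean of the other sorted populations (edgeR quasi-likelihood test with Benjamini-Hochberg adjustment over all genes tested, as for every adjusted p below, adjusted p = 5.04e-07), and sorted AMs below it by a log2 difference of -3.54 ± 0.27 (adjusted p = 9.39e-07). These contrasts share their libraries, so they are not independent of each other.

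In culture the order of Csf1r levels was lost among the 3 populations grown with M-CSF, whose libraries overlapped. MG-LCs gave 646, 2183 and 2277 CPM, KC-LCs 1979, 1837 and 2659.7, and PM-LCs 1405, 806 and 2367. AM-LCs gave 584, 333 and 367 CPM and lay below all libraries of the other cultures. The lowest MG-LC library, replicate 1, was the one richest in fibroblast RNA, as was the lowest PM-LC library, replicate 2; the part of that RNA in the level was not tested. Csf1r was 8.04-fold lower in MG-LCs than in MG (log2 difference of sorted minus cultured 3.01 ± 0.70, edgeR adjusted p = 0.0160) and 3.28-fold lower in KC-LCs than in KCs (1.71 ± 0.41, adjusted p = 0.0161). The sorted and cultured libraries did not overlap in either tissue. When single libraries were left out, the difference ran from 2.60 to 3.27 in MG and from 1.40 to 1.97 in KCs. RNA of several other cell types was higher in sorted KCs than in KC-LCs: 5 dendritic cell genes summed to 73.9 to 497 CPM against 0.705 to 1.65, 5 monocyte genes to 142 to 345 against 0.804 to 4.46, 6 B cell genes to 129 to 341 against 8.97 to 20.5, and 6 hepatocyte genes to 92.9 to 219.5 against 0.0235 to 0.0727. All genes of these 4 lists passed the test (5, 5, 6 and 6), where 19.4% of all genes were higher. A list of 6 endothelial genes summed to 376 to 697 CPM against 13.3 to 39.1, and 3 of the 4 tested were higher. The sum of 8 T cell, NK cell and innate lymphoid cell genes overlapped, at 18.3 to 184 CPM against 93.6 to 188, with 6 of the 7 tested higher and 1 lower. The part of these other cell types in the differences of Csf1r, Csf2ra and Csf2rb between KCs and KC-LCs was not tested. For PMs the difference was 0.65 ± 0.37 (adjusted p = 0.236) and for AMs 0.29 ± 0.21 (adjusted p = 0.286), with overlapping libraries in both. Per kilobase of exon, the scale on which genes can be set side by side, Csf1r stood at 61.7 ± 5.62 (SD, n = 3) times Csf2ra in sorted MG and at 0.399 ± 0.0350 times it in sorted AMs. In culture this ratio of levels was 6.72 ± 1.33 in MG-LCs, 6.62 ± 2.11 in KC-LCs, 2.39 ± 0.778 in PM-LCs and 0.556 ± 0.164 in AM-LCs. AMs and AM-LCs were thus the groups in which the transcript of the M-CSF receptor stood below that of the GM-CSF receptor alpha chain.

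**Figure D1:**
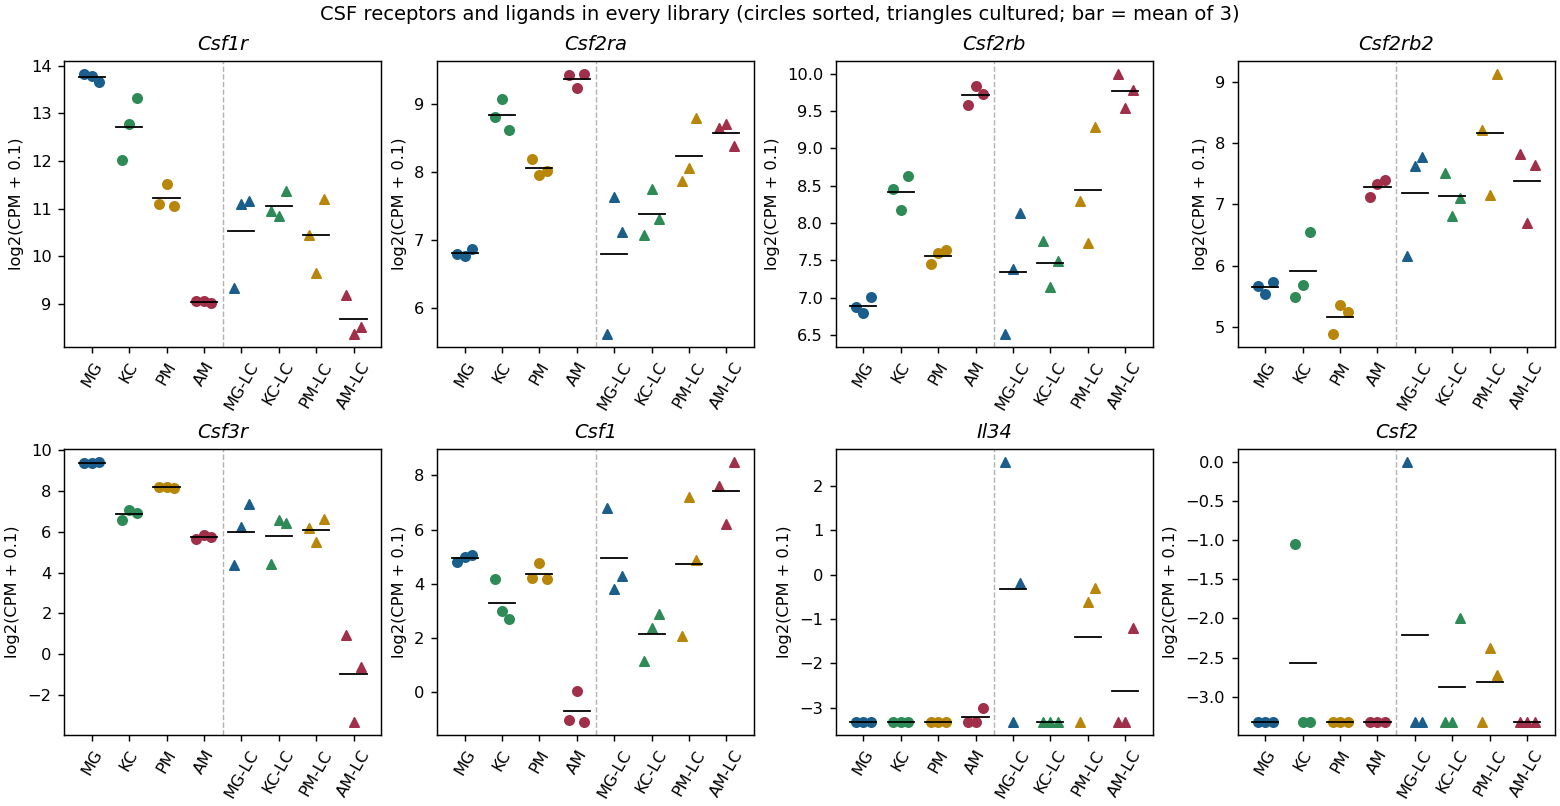
Level of each of the 8 genes in every library, as log2 of CPM plus 0.1, with sorted groups to the left of the dashed line and cultured groups to the right; circles are sorted libraries, triangles cultured ones, and the bar is the mean of the 3 log2 values. Csf1r steps down from MG to AM, Csf2ra and Csf2rb are highest in AM among the sorted groups, Csf3r is near 0 CPM in AM-LC, and Csf1 is near 0 CPM in sorted AM and high in AM-LC.

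Csf2ra, the alpha chain that gives the receptor its binding to GM-CSF, was highest in sorted AMs and lowest in sorted MG. It lies on chromosome 19 at 61223957 to 61228429, minus strand, and shares no stretch of 50 exon bases with another gene. AMs gave 688, 604 and 693 CPM, KCs 446, 540.3 and 393, PMs 291, 248 and 258, and MG 111, 109 and 117. AMs lay above the libraries of every other group, and MG below those of the other sorted groups. The log2 difference from the other sorted populations was 1.48 ± 0.11 for AMs (edgeR adjusted p = 7.07e-07), 0.77 ± 0.11 for KCs (adjusted p = 0.000263) and -1.98 ± 0.13 for MG (adjusted p = 2.79e-07). AM-LCs, the cells grown with GM-CSF, gave 401, 418 and 333 CPM and were 1.71-fold below AMs (0.77 ± 0.13, adjusted p = 0.00266, or 0.0914 when all 24 libraries were fitted together). KC-LCs, at 135, 214 and 159 CPM, were 2.69-fold below KCs (1.43 ± 0.27, adjusted p = 0.00715), which also held more dendritic cell and monocyte RNA (above). MG-LCs (49.1, 198 and 139 CPM) and PM-LCs (234, 266 and 441 CPM) overlapped their sorted counterparts.

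Csf2rb and Csf2rb2, the beta chain genes, are neighbours on chromosome 15, 20031 bases apart on opposite strands, at 78325752 to 78353847 (plus, Csf2rb) and 78282507 to 78305721 (minus, Csf2rb2). Their coding sequences are 95.2% identical over 2628 aligned bases, so it matters for every value below which reads can tell the genes apart. Of the 50-base windows in their exons, 12.3% in Csf2rb and 18.9% in Csf2rb2 also occur in another gene, nearly all of them in the partner, and reads from such windows cannot be assigned to 1 gene. The stretch of 60 coding bases with the most differences (13, in capitals) shows how well a read can separate them, ending at coding position 363 of Csf2rb and 366 of Csf2rb2 (GENCODE transcripts on mm10):
Csf2rb: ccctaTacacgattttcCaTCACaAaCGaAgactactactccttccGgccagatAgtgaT
Csf2rb2: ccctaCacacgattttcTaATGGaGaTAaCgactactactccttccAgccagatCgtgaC

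The longest run without a difference spans 242 bases, and its first 60, from coding position 2083 to 2142 in both genes, show where a read carries no information on its origin:
both genes: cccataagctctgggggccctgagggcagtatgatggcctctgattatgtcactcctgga

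Csf2rb was highest in AMs and AM-LCs, whether sorted or cultured. Sorted AMs gave 764, 916 and 846 CPM and AM-LCs 1022, 743 and 882, and their difference was -0.08 ± 0.15 log2 units (edgeR adjusted p = 0.677). The other sorted libraries ran from 111 CPM in MG to 397 CPM in KCs, all below AMs (2.10 ± 0.11 log2 units for AMs against the rest, adjusted p = 3.41e-08). Among the cultures, MG-LCs gave 91.4, 167 and 282 CPM, KC-LCs 217, 141 and 180.5, and PM-LCs 314, 212 and 624. All of these lay below the lowest AM-LC library, and AM-LCs stood 3.88-fold above the M-CSF cultures (1.96 ± 0.32, adjusted p = 0.00412). Csf2rb was 1.92-fold lower in KC-LCs than in KCs (0.94 ± 0.26, adjusted p = 0.0253). In PM-LCs all 3 libraries lay above sorted PMs without passing the test (-1.03 ± 0.37, adjusted p = 0.0783), and without PM-LC replicate 2 the difference was -1.28 (adjusted p = 0.0110). The difference also passed with DESeq2 (adjusted p = 0.0273) and with all 24 libraries in 1 edgeR fit (adjusted p = 0.0347).

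Csf2rb2 rose in all 3 populations grown with M-CSF and not detectably in AM-LCs. Its neighbour Csf2rb had the opposite sign only in KCs. In MG and PMs Csf2rb also stood higher in culture, by smaller log2 differences of -0.61 ± 0.40 and -1.03 ± 0.37. These did not pass the test (edgeR adjusted p = 0.240 and 0.0783). Sorted MG gave 50.8, 46.2 and 53.4 CPM against 71.1, 197 and 218 in MG-LCs, a log2 difference of -1.71 ± 0.42 (edgeR adjusted p = 0.0190). Sorted KCs gave 44.7, 51.4 and 93.8 CPM against 182, 113 and 138 in KC-LCs (-1.20 ± 0.34, adjusted p = 0.0289). Sorted PMs gave 29.6, 40.8 and 38.0 CPM against 298, 143 and 558 in PM-LCs, a 9.29-fold rise (-3.22 ± 0.48, adjusted p = 0.00298; -2.60 without PM-LC replicate 3). In these 3 tissues the sorted and cultured libraries did not overlap. AMs gave 139, 162 and 169 CPM and AM-LCs 226, 104 and 199.6 (-0.19 ± 0.28, adjusted p = 0.597), so the groups overlapped. The difference of sorted minus cultured AMs lay above the mean of that difference in the other tissues by 1.86 ± 0.50 log2 units. The edgeR interaction term gave an adjusted p = 0.0134, or 0.0555 without AM-LC replicate 2.

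The share of Csf2rb2 in the counts of both beta chain genes does not depend on how libraries are scaled, and it separated the M-CSF cultures from all other groups. MG stood at 29.6% ± 0.531 (SD, n = 3), KCs at 15.2% ± 3.90, PMs at 15.9% ± 1.48 and AMs at 15.7% ± 0.826. In culture it was 47.2% ± 6.03 in MG-LCs, 44.5% ± 1.12 in KC-LCs, 45.3% ± 4.54 in PM-LCs and 16.3% ± 3.47 in AM-LCs. The 9 libraries of the M-CSF cultures lay between 40.2% and 54.1%, the 12 sorted libraries between 11.3% and 30.2%, and the 3 AM-LC libraries between 12.3% and 18.5%. These shares are a description, for which no test was fixed. The 95% Wilson intervals of single libraries, which cover counting error only, were far narrower than the gap between the ranges. MG-LC replicate 1 and PM-LC replicate 2, the fibroblast-rich libraries, stood at 43.8% and 40.2%, within the range of the M-CSF cultures. Per kilobase of exon the mean shares were higher but kept the same order of cultures and sorted cells, with 55.1% to 57.7% in the M-CSF cultures, 22.9% in AM-LCs, 39.3% in MG and 21.5% to 22.6% in the other sorted groups.

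**Figure D2:**
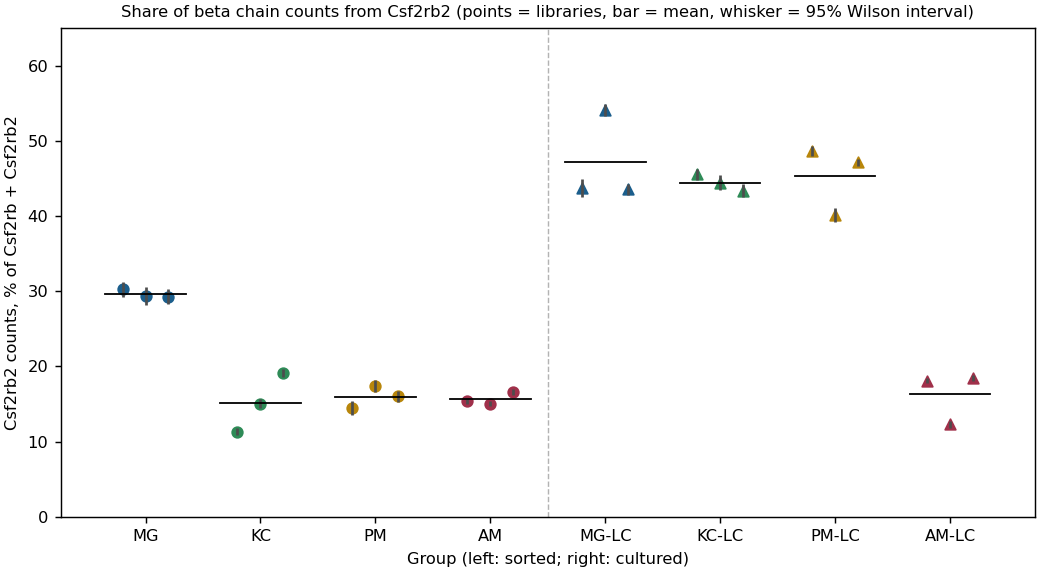
Csf2rb2 as a percentage of the Csf2rb and Csf2rb2 counts of each library, sorted groups left and cultured groups right of the dashed line; points are libraries, whiskers 95% Wilson intervals and bars the mean of 3. The 9 libraries grown with M-CSF lie at 40.2% or above, while AM-LCs lie at 12.3% to 18.5%, in the range of sorted KCs, PMs and AMs.

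Csf3r, the G-CSF receptor gene, was highest in sorted MG and fell in culture in MG, PMs and AMs. It lies on chromosome 4 at 126024550 to 126044440, plus strand, and 10.7% of its 50-base exon windows also occur in other annotated genes. MG gave 662, 669.7 and 686 CPM, PMs 295, 299 and 283, KCs 97.0, 133 and 122, and AMs 50.5, 56.6 and 54.1, with no overlap between neighbours in this order. In the same 3 MG libraries 8 other neutrophil genes, among them S100a8, S100a9 and Ly6g, summed to at most 0.0710 CPM, with 6 to 8 of them at 0. In MG-LCs the levels were 20.4, 75.6 and 163 CPM (2.95 ± 0.72 log2 units lower, edgeR adjusted p = 0.0186) and in PM-LCs 71.8, 44.7 and 99.4 CPM (2.01 ± 0.29, adjusted p = 0.00257). The MG difference ran from 2.46 to 3.78 when single libraries were left out, with the highest value without MG-LC replicate 3. KC-LCs, at 21.2, 96.6 and 87.0 CPM, lay just below KCs, and the difference did not pass the test (0.77 ± 0.50, adjusted p = 0.272). AM-LCs held 58, 0 and 15 reads, or 1.85, 0 and 0.553 CPM, which is 64.5-fold below AMs (6.01 ± 0.92, adjusted p = 0.00190). The size of this difference rested on few reads, and it was 7.55 log2 units without AM-LC replicate 1 and 5.44 without replicate 2. The 8 neutrophil genes summed to 332 to 721 CPM in the same AM-LC libraries, the highest of the 8 groups.

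Csf1, which encodes M-CSF, was all but absent from sorted AMs and was highest in AM-LCs. The gene lies on chromosome 3 at 107741048 to 107760469, minus strand, and shares no 50-base window with another gene. Sorted MG gave 27.8, 31.9 and 33.2 CPM, PMs 18.4, 26.9 and 17.7, KCs 18.2, 7.96 and 6.46, and AMs 0.388, 0.932 and 0.368, from 13, 36 and 15 reads. AMs lay below every other library of the series, with a log2 difference of -5.07 ± 0.48 from the other sorted groups ( edgeR adjusted p = 5.36e-06; -5.67 without AM replicate 2). AM-LCs gave 193, 73.4 and 358 CPM, which is 373-fold above AMs (-8.54 ± 0.79 for sorted minus cultured, adjusted p = 0.000256; -7.88 without AM-LC replicate 3). AM-LCs also held 247 to 299 CPM of 8 T cell, NK cell and innate lymphoid cell genes against 1.73 to 5.89 CPM in AMs. In AM-LCs 4 or 5 of the 8 were at 0. The same sum was 83.9 to 96.4 CPM in MG-LCs, 93.6 to 188 in KC-LCs and 263 to 458 in PM-LCs. A list of 6 eosinophil, mast cell and basophil genes summed to 88.3, 1.12 and 94.6 CPM in AM-LCs. In AMs that sum was 0.0518 to 0.239 CPM. The part of either list in the difference was not tested. The other tissues showed no change of Csf1 that passed the test, with differences of -0.65 ± 0.78 for MG, 1.18 ± 0.62 for KCs and -1.53 ± 1.02 for PMs (edgeR adjusted p = 0.514, 0.179 and 0.297). The change of AMs differed from the mean of these by -8.19 ± 1.27 (interaction, adjusted p = 0.000149), or by -7.59 without AM-LC replicate 3 and -8.81 without PM-LC replicate 2.

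Csf1 varied widely between libraries of MG-LCs and of PM-LCs, and fibroblast RNA varied with it. MG-LCs gave 111, 13.8 and 19.3 CPM, PM-LCs 4.16, 147 and 29.3, and KC-LCs 2.12, 5.04 and 7.24. In MG-LCs and PM-LCs the highest Csf1 came from replicates 1 and 2, the libraries with the most fibroblast RNA. In AM-LCs replicate 3 had both the most Csf1 and the most fibroblast RNA, yet replicate 1, with 193 CPM of Csf1, had only 16.7 CPM of the 8 fibroblast and mesothelium genes. The part of fibroblast RNA in these levels was not tested. Without the 3 fibroblast-rich libraries the MG difference turned to 0.87 (adjusted p = 0.0147) and the PM difference to 0.36 (adjusted p = 0.719).

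Il34 and Csf2 had no read in most libraries and at most 217 and 34 reads in any. Il34 lies on chromosome 8 at 110741829 to 110805924, minus strand, and its exons overlap the antisense genes Gm15895 and Gm15894 by 75 and 22 bases. Of the sorted libraries, 11 held no Il34 read and 1, of AMs, held 1 read. In culture Il34 had 217 and 27 reads in MG-LC replicates 1 and 3, 18 and 28 in PM-LC replicates 2 and 3, 9 in AM-LC replicate 3, and none in KC-LCs. The highest level, in MG-LC replicate 1, was 5.73 CPM. These 5 libraries were the cultured libraries with the most fibroblast RNA, at 369.96 CPM or more against at most 178 CPM in those without an Il34 read. Csf2 lies on chromosome 11 at 54247271 to 54249667, minus strand, with 96 bases of exon overlapping the antisense gene Gm12223. It had reads in 5 of 24 libraries, 34 in MG-LC replicate 1, 14 in KC replicate 1, 6 in KC-LC replicate 3 and 3 and 2 in PM-LC replicates 2 and 3. No Csf2 read was found in AMs or AM-LCs, which allows up to 0.0266 and 0.0352 CPM over the 3 libraries of each group. Il34 passed the filter on low counts only in fits that included all cultures, and Csf2 in none.

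**Figure D3:**
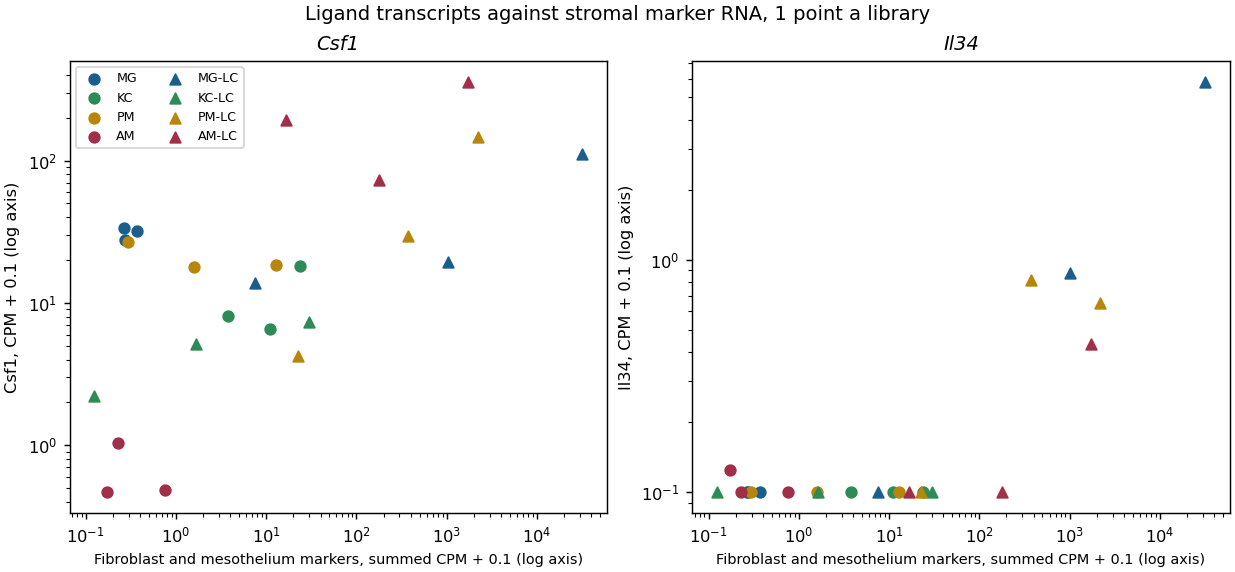
Csf1 (left) and Il34 (right) against the summed CPM of 8 fibroblast and mesothelium genes, 1 point a library, both axes on a log scale after adding 0.1 CPM; circles are sorted and triangles cultured libraries. Il34 reads in culture sit in the 5 libraries with the most stromal RNA, whereas Csf1 in AM-LC is high at 16.7 CPM as well as at 1715 CPM of stromal markers.

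Set side by side, the comparison of sorted with cultured cells, which asks what changes when a TRM is grown outside its organ, called 3 of the 6 genes tested in MG, where 46.4% of all genes tested passed, 4 of 6 in KCs (33.8% of all genes), 2 of 6 in PMs (28.9%) and 3 of 6 in AMs (48.7%). In MG, Csf1r and Csf3r were higher in sorted cells (as were 21.2% of all genes) and Csf2rb2 was lower (25.2%). In KCs, Csf1r, Csf2ra and Csf2rb were higher (19.4%) and Csf2rb2 lower (14.4%). Among PMs, Csf3r was higher (12.1%) and Csf2rb2 lower (16.8%). Among AMs, Csf2ra and Csf3r were higher (22.9%) and Csf1 lower (25.9%). The sorted and cultured libraries did not overlap for 3 of 6 genes in MG, where 65.4% of all genes did not, for 5 in KCs (53.7%), and for 3 each in PMs (48.8%) and AMs (62.2%). With so large a share of all genes changing, these counts are close to the background and say little on their own. The calls in MG depended on which library was left out. All 3 were lost without any 1 sorted MG library (replicate 1, 2 or 3). In these fits the log2 differences stayed at 2.99 to 3.06 for Csf1r, and the share of all genes called fell to 18.9% to 19.8%. Csf3r was also lost without MG-LC replicate 2 (2.87, adjusted p = 0.0563). Without MG-LC replicate 1, the fibroblast-rich library, all 6 genes were called, with Csf2ra at -0.62 (adjusted p = 0.0249), Csf2rb at -0.95 (adjusted p = 0.0182) and Csf1 turned to 0.87. The share of all genes called in that fit is not given here, so the count cannot be set against it. In KCs the number called ranged from 1 (without KC-LC replicate 2) to 3 when single libraries were left out, in 6 fits, and was 2 without KC-LC replicate 1 or 3. The shares of all genes called in these 6 fits are not given here either. Csf2rb2 in KCs lost its call in 5 of these fits, all but that without KC replicate 3, with an adjusted p of up to 0.0953. Csf1r in KCs lost its call without KC-LC replicate 1 (adjusted p = 0.0520) or 2 (adjusted p = 0.0830), and Csf2rb without KC replicate 3 or KC-LC replicate 2 or 3 (adjusted p = 0.0671, 0.112 and 0.0853). In PMs Csf1r was called without PM-LC replicate 3 (1.13, adjusted p = 0.0258), and in AMs without AM-LC replicate 1 (0.57, adjusted p = 0.0117).

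**Figure D4:**
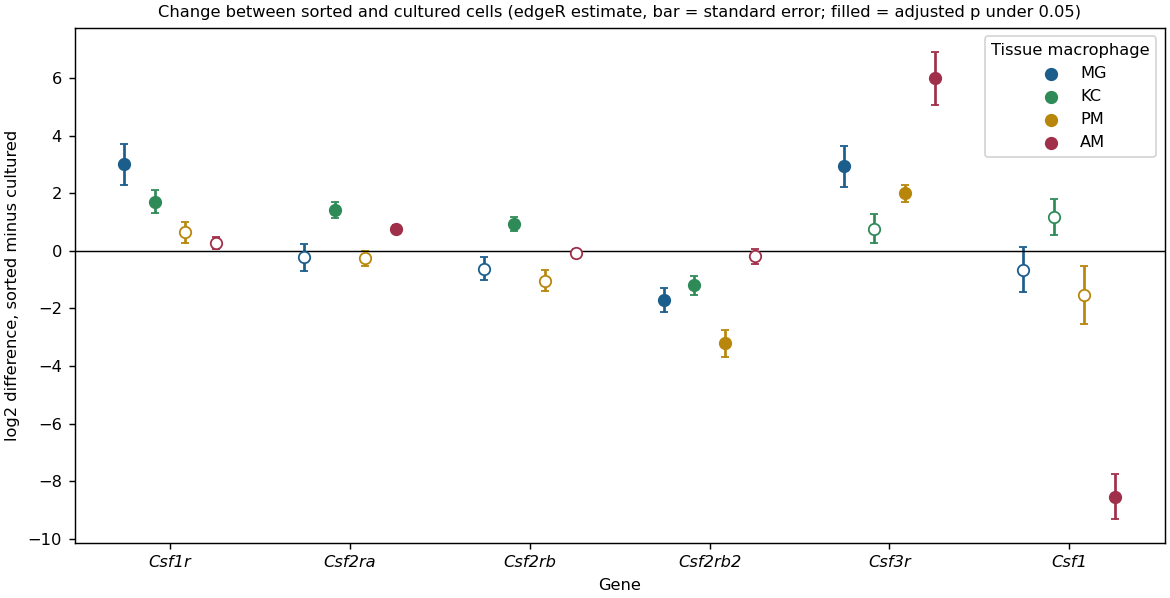
Log2 difference of sorted minus cultured cells for the 6 genes tested in each tissue, with the standard error as a bar; filled points passed an adjusted p of 0.05 in edgeR and open points did not. Csf2rb2 lies below 0 for MG, KC and PM but near 0 for AM, and Csf1 in AM lies at -8.54.

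Among the sorted populations, all 6 genes tested differed between MG and the mean of the others (51.4% of all genes did) and between AMs and the others (46.6%), while 4 of 6 did so for KCs (36.5%) and 4 of 6 for PMs (35.9%). MG were higher in Csf1r, Csf3r and Csf1 (26.2% of all genes were higher) and lower in Csf2ra, Csf2rb and Csf2rb2 (25.2% were lower), and AMs had the opposite sign for each of the 6 genes (24.7% of all genes higher and 21.9% lower). KCs were higher in Csf1r, Csf2ra and Csf2rb (24.1%) and lower in Csf3r (12.4%), and PMs were higher in Csf3r and Csf1 (20.8%) and lower in Csf2rb and Csf2rb2 (15.1%). All 6 genes lay outside the range of the other sorted libraries in AMs (22.6% of all genes did), 5 in MG (29.9%), 1 in PMs (Csf2rb2, 14.4%) and 0 in KCs (11.3%). These contrasts are built from the same 12 libraries, so opposite signs are partly a matter of construction. The smallest of these calls, Csf2rb2 in MG (-0.54 ± 0.20, edgeR adjusted p = 0.0413), came from libraries that overlapped those of the other groups and was lost with RLE scaling (adjusted p = 0.0567). It was also lost without any 1 of MG replicates 1, 2 and 3, AM replicates 1, 2 and 3 or PM replicates 2 and 3, with an adjusted p of up to 0.205. Csf2rb in KCs (0.38 ± 0.11, adjusted p = 0.0233) was lost without any 1 of AM replicates 1 to 3, MG replicates 1 to 3 or KC replicates 1 and 3, with an adjusted p of up to 0.109. Csf1 in PMs was 1.88 ± 0.31 above the others (adjusted p = 0.000641), whose mean includes AMs, and its level lay between those of MG and KCs.

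The cultures grown with GM-CSF were then compared with those grown with M-CSF, a contrast in which only 13.1% of all genes passed and 4 of the 7 genes tested did. Of all genes, 8.38% were higher and 4.71% lower, and 12.5% did not overlap between the groups, nor did 3 of the 7, Csf1r, Csf3r and Csf2rb. AM-LCs were higher in Csf2rb (above) and in Csf1 (3.12 ± 0.84, edgeR adjusted p = 0.0349), and lower in Csf1r (-2.03 ± 0.45, adjusted p = 0.0157) and Csf3r (-6.50 ± 1.21, adjusted p = 0.00691, or 0.0833 with limma-voom; -8.04 without AM-LC replicate 1). Csf1 overlapped between the groups, since AM-LC replicate 2 lay below the fibroblast-rich libraries of MG-LCs and PM-LCs, and its call was kept only when MG-LC replicate 1 or PM-LC replicate 1 or 2 was the library left out; without AM-LC replicate 3 it was 2.47 (adjusted p = 0.157) and without PM-LC replicate 2 it was 3.75. The call of Csf1r was lost without AM-LC replicate 2 (-1.90) or 3 (-1.93, adjusted p = 0.0731). Csf2ra was 1.04 ± 0.32 higher in AM-LCs, which missed the threshold (adjusted p = 0.0575) but passed it with DESeq2 (adjusted p = 0.0181) and without the 3 fibroblast-rich libraries (adjusted p = 0.0398). Csf2rb2 showed no detectable difference, at -0.14 ± 0.42 (adjusted p = 0.871). Sorted AMs and AM-LCs thus each stood below their comparison groups in Csf1r and Csf3r and above them in Csf2rb, whereas Csf1 was lowest in sorted AMs and highest in AM-LCs.

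MG-LCs, which also received IL-34, showed no difference from KC-LCs and PM-LCs that passed the test. None of the 7 genes tested passed, and neither did any of the other genes (0% of 14813 by edgeR), although 2687 genes had an unadjusted p under 0.05, limma-voom called 1 gene and DESeq2 1012. At an unadjusted p under 0.05, 2 of the 7 passed (18.1% of all genes), and all 7 overlapped between the groups, where 3.94% of all genes did not. Csf1r, the shared receptor of M-CSF and IL-34, differed by -0.11 ± 0.42 log2 units (adjusted p = 0.918), an error that leaves room for a change of either sign. KC-LCs and PM-LCs, grown in the same medium, differed in none of the 7 genes by edgeR (0.108% of all genes, 16 in number, passed). At an unadjusted p under 0.05 they differed in 3 (13.4% of all genes), and by limma-voom in none (0.162%). DESeq2 called 1 of the 7, Csf1 (-3.67, adjusted p = 0.00879), and 6.78% of all genes, 1004 in number. Of all genes, 0.0135% were higher in KC-LCs and 0.0945% lower, and 19.7% did not overlap, as was the case for 1 of the 7, Csf2ra.

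The log2 difference of sorted minus cultured AMs was also set against the mean of this difference in the other tissues, by an interaction term. This term passed for 4 of 7 genes and for 17.1% of all genes. It was positive for Csf2rb2 and Csf3r (as for 9.45% of all genes) and negative for Csf1r and Csf1 (7.68%).

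Genes known to act downstream of GM-CSF were described next. Of 10 targets of JAK2 and STAT5, 3 were higher in AM-LCs than in the M-CSF cultures and none lower, where 8.38% of all genes were higher and 4.71% lower (median log2 difference -0.01, against 0.00 over all genes). Cish, a feedback inhibitor of STAT5 signalling, stood at 68.7 ± 32.1 CPM in AM-LCs and at 1.29 to 5.02 CPM as means of the other cultures (4.96 ± 0.80, edgeR adjusted p = 0.00359). Socs2, another feedback inhibitor, stood at 42.8 ± 20.8 CPM in AM-LCs against means of 0.510 to 7.82 (4.28 ± 0.88, adjusted p = 0.0109), and Socs1 was 1.82 ± 0.47 higher (adjusted p = 0.0292). Between AMs and AM-LCs, Cish differed by 0.08 ± 0.29 and Socs2 by 0.10 ± 0.31 (adjusted p = 0.849 and 0.816), so both were near their sorted level in the GM-CSF culture. In sorted AMs 6 of the 10 targets were higher than in the other sorted populations and 1 lower, where 24.7% of all genes were higher and 21.9% lower (median 2.26, against -0.08 over all genes). Of those 6, Ccnd2, Pim1 and Osm did not pass in AM-LCs against the other cultures. Osm, a cytokine of the IL-6 family, stood at 264 ± 104 CPM in AMs against means of 4.22 to 24.2 in the other sorted cells, but at 60.7 ± 43.4 CPM in AM-LCs against means of 132 to 184 in the other cultures. Osm rose in culture in MG (log2 difference of sorted minus cultured -2.47 ± 0.25), KCs (-5.30 ± 0.76) and PMs (-3.98 ± 0.22), with edgeR adjusted p = 0.00150, 0.00264 and 4.97e-05, and fell in AMs (2.11 ± 0.60, adjusted p = 0.0235), and the change of AMs differed from the mean of the others by 6.03 ± 0.72 (interaction, adjusted p = 9.63e-06).

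Of 8 genes that GM-CSF is known to raise in macrophages, 6 were higher in AM-LCs than in the M-CSF cultures and none lower, against the same 8.38% and 4.71% of all genes (median 2.84, against 0.00 over all genes). Ccl17, a chemokine for T cells, was at 283 ± 192 CPM in AM-LCs and at most 0.0670 CPM as a mean in any other culture, and at 2.83 ± 1.73 CPM in sorted AMs, so its rise in AM-LCs (-6.66 ± 0.69 for sorted minus cultured, edgeR adjusted p = 0.000406) went beyond the level in the organ. Itgax, which encodes CD11c, was at 925 ± 45.0 CPM in AMs and 1298 ± 287 CPM in AM-LCs, above the other cultures by 3.52 ± 0.57 (adjusted p = 0.00369). Pparg, the nuclear receptor that AMs need to mature, was at 348 ± 17.6 CPM in AMs and 94.8 ± 25.1 CPM in AM-LCs (1.86 ± 0.21, adjusted p = 0.000566), while KC-LCs held 54.7 ± 19.9 and PM-LCs 78.1 ± 27.9 CPM, and the difference between AM-LCs and the other cultures did not pass (1.05 ± 0.48, adjusted p = 0.178). Dendritic cells also express Ccl17, Ccl22 and Irf4, and 5 dendritic cell genes (Zbtb46, Xcr1, Cd209a, Clec9a and Ccr7) summed to 42.0 to 105 CPM in AM-LCs, against 10.3 CPM or less in every other cultured library and 2.87 to 4.00 CPM in sorted AMs. Their part in these results was not tested.

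**Figure D5:**
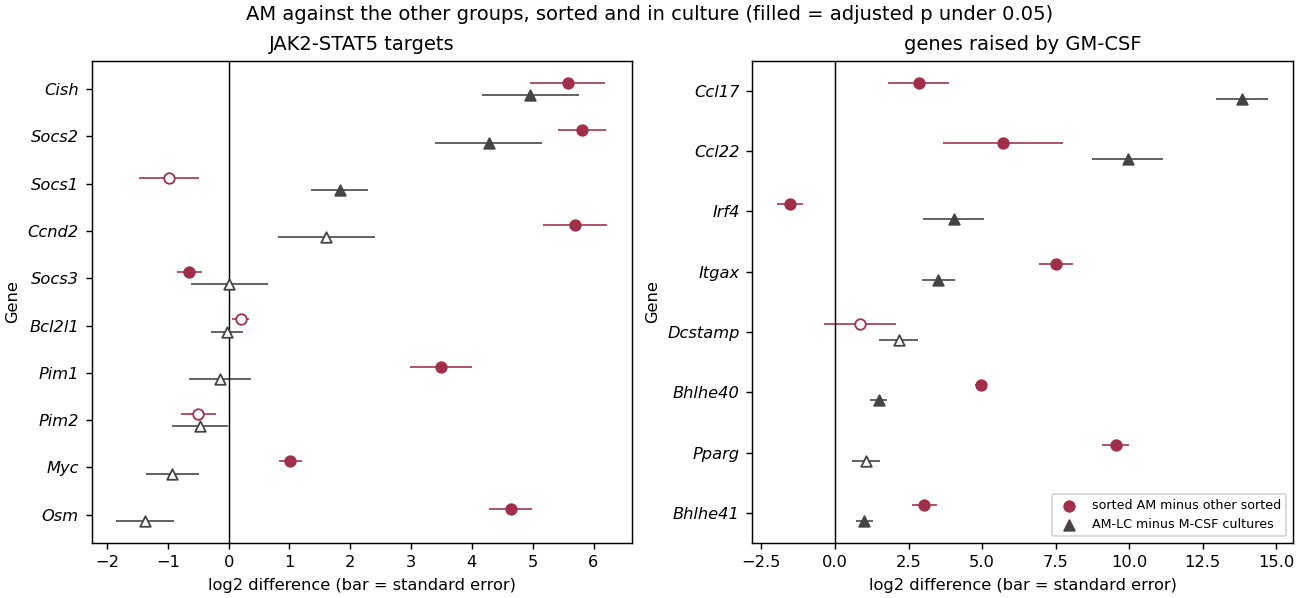
Log2 differences of sorted AM from the other sorted populations (circles) and of AM-LC from the M-CSF cultures (triangles) for 10 JAK2 and STAT5 targets and 8 genes raised by GM-CSF, with standard errors as bars and filled symbols for an adjusted p under 0.05 in edgeR. Cish and Socs2 are high in both comparisons, while Osm and Pim1 are high in sorted AM only by this threshold and Irf4 has opposite signs.

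Transcription factors that act on Csf1r or in M-CSF-grown macrophages gave 1 gene higher and 3 lower of 13 in AM-LCs against the M-CSF cultures (8.38% and 4.71% of all genes; median -0.82, against 0.00). Maf, which restrains self-renewal in macrophages, had the same order of means as Csf1r in the sorted cells: MG held 232 ± 23.0 CPM, KCs 182 ± 17.5, PMs 58.1 ± 9.46 and AMs 0.191 ± 0.171. In AM-LCs Maf rose to 3.91 ± 1.51 CPM (-4.36 ± 1.04 for sorted minus cultured, edgeR adjusted p = 0.0116). It remained below the M-CSF cultures, by a log2 difference of -4.38 ± 0.60 (adjusted p = 0.00153). Spi1, which encodes PU.1 and binds the Csf1r promoter, was at 269 to 434 CPM as means of the 4 cultures (0.05 ± 0.29 for AM-LCs against the others, adjusted p = 0.935).

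Of 23 signalling proteins next to the receptors, 12 were higher in sorted AMs than in AM-LCs and 2 lower (22.9% and 25.9% of all genes; median 0.62, against -0.04 over all genes). The counts were 6 and 3 for MG (21.2% and 25.2% of all genes; median -0.10, against -0.03), 9 and 2 for KCs (19.4% and 14.4%; 0.24, against 0.01) and 4 and 6 for PMs (12.1% and 16.8%; -0.04, against -0.01), so those for MG were near the shares of all genes. Lyn, a Src-family kinase downstream of CSF1R and the GM-CSF receptor, was lower in all 4 cultures, from 682 ± 4.64 to 143 ± 66.7 CPM in MG and from 383 ± 16.8 to 146 ± 8.09 CPM in AMs, by log2 differences of 2.23 ± 0.38, 1.38 ± 0.27, 1.32 ± 0.23 and 1.37 ± 0.10 in MG, KCs, PMs and AMs (edgeR adjusted p = 0.00641, 0.00758, 0.00519 and 0.000132). In AM-LCs against the M-CSF cultures 4 of the 23 were higher and none lower (8.38% and 4.71% of all genes; median -0.05, against 0.00): Fgr, Src, Jak2 and Mapk3. Jak2, the kinase of the GM-CSF receptor, was 1.16 ± 0.30 higher (adjusted p = 0.0318). Among 12 genes that damp receptor signalling, of which 11 were tested, 5 were higher in sorted MG than in MG-LCs and 1 lower, against 5 and 0 for KCs, 3 and 2 for PMs and 5 and 0 for AMs, beside the same shares of all genes as above (21.2% and 25.2%, 19.4% and 14.4%, 12.1% and 16.8%, 22.9% and 25.9%; medians 1.04, 0.84, 0.19 and 0.77). Dok3 and Sla, adaptors that attenuate signalling, were among those lower in all 4 cultures. In AM-LCs against the M-CSF cultures 2 were higher (Sla and Dok3) and 2 lower (Dok1 and Sh2b3), where 8.38% of all genes were higher and 4.71% lower (median -0.41, against 0.00).

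Of 11 related cytokines and receptors, 10 were in the table and 4 or 5 were tested in each tissue, of which 3 rose in culture in MG, KCs and PMs and 4 in AMs, while 1, Flt3, fell in KCs (shares of all genes as above; medians for sorted minus cultured -3.27, -1.79, -2.50 and -7.05). Il3ra, the alpha chain that pairs with the Csf2rb2 product, rose in all 4 cultures: MG went from 0.824 ± 0.241 to 32.1 ± 7.79 CPM, KCs from 9.98 ± 1.98 to 34.4 ± 10.6, PMs from 18.7 ± 3.28 to 43.1 ± 3.32, and AMs from 6.97 ± 0.989 to 24.7 ± 1.09. The log2 differences were -5.30 ± 0.37, -1.79 ± 0.33, -1.21 ± 0.21 and -1.84 ± 0.19 (edgeR adjusted p = 0.000769, 0.00662, 0.00563 and 0.000368). Il3ra thus rose in the GM-CSF culture as well as in those with M-CSF. Sdc1, a syndecan that binds IL-34, rose in all 4 cultures from means under 1 CPM to means of 38.1 to 223 CPM, and fibroblasts and epithelia express it too. Il3, the ligand of that receptor, and Il5 had no read in any library. Csf3, the ligand of the Csf3r product, had no read in any sorted library and 4179 reads (110 CPM) in the fibroblast-rich MG-LC replicate 1.

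Across the 24 libraries, the genes whose log2 CPM followed a gene of interest most closely among 8376 candidates are given as a description, since the libraries share tissue and culture. For Csf1r they were Slc25a45 (Pearson r = 0.962), Kansl1l (0.953) and Sec14l1 (0.950). For Csf3r they were Zfp777 (0.945), Tsc22d4 (0.920) and Pld4 (0.915). Csf2ra was most like Myo1g (0.894), Ifi30 (0.878) and Ccdc125 (0.876), and the genes most like Csf2rb included Nabp1 (0.891) and Eepd1 (0.846). Csf2rb2 was most like Mfsd12 (0.902), Rabgef1 (0.880) and Slc35f6 (0.870), none of them among those of Csf2rb. Csf1 had the weakest best match, Lpgat1 (0.835), followed by Rcn1 (0.804) and Ckap4 (0.795). Among the genes themselves, the highest r was 0.823, between the alpha and beta chains Csf2ra and Csf2rb.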

How the data were processed

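Whole-number read counts per gene were deposited by the authors for all 24 libraries in 1 table, and were used as deposited. Per the study's methods, full-length cDNA was amplified from the sorted and cultured cells without marking strand, and single reads were trimmed with Trimmomatic and aligned with STAR to the mouse genome mm10. The submitters' processing notes name Trimmomatic 0.36, STAR 2.5.2b and hg19, while the methods give other versions of both tools, and the gene identifiers are those of mouse. The annotation release and the strand setting of counting are not given in the sources used here.

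Genes were tested with edgeR (4.0.16) in R (4.3.3): TMM factors, the filterByExpr filter with a minimum count of 10, the quasi-likelihood test, and Benjamini-Hochberg adjustment over all genes tested, with a call at an adjusted p under 0.05. Each tissue's sorted and cultured groups were fitted on their 6 libraries, the sorted and the cultured groups among themselves on 12 each, and the interaction on 24, in 12 comparisons. Levels are TMM-scaled CPM, or CPM per kilobase of merged exon (GENCODE M21) between genes. Likeness used Pearson's r of log2 CPM among genes with an average log2 CPM of at least 3. The text names the 8 genes, genes of the pathway and marker lists, each list counted whole, genes whose exons overlap one of the 8, and the 3 most alike genes for each of the 8 with an average log2 CPM above 2; which list genes are given with values was decided after their values were seen. A few of the genes this rule names are not reported here. Positions and sequences are from GENCODE M21 on mm10; no sequence of Csf1r is shown.

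The genes and lists were chosen with earlier results of these data known. Alternatives were limma-voom (3.58.1), which the study used, DESeq2 (1.42.0), RLE factors, no filter, CPM above 1 in 3 libraries, all 24 libraries in 1 fit, a replicate block, a fold threshold of 1.5 on the log2 scale, and leaving out each library. The scripts were tested on simulated counts.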

Additional observations from a re-analysis of the deposited data

Results flagged for a closer look

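For 4 genes the change between sorted and cultured cells in AMs differed from the mean change of MG, KCs and PMs. This was by a test of the difference itself (edgeR interaction term over 24 libraries, in which 17.1% of all genes passed). Each change is the log2 difference of sorted minus cultured, so a negative value is a rise in culture. For Csf1r the difference of changes was -1.50 ± 0.49 log2 units (adjusted p = 0.0423), from changes of 3.01, 1.71, 0.65 and 0.29 (MG, then KCs, PMs and AMs, as for each gene here); it was lost in 16 of the 24 fits that left out 1 library, with an adjusted p of up to 0.158, and kept without AM-LC replicate 2, KC replicate 1, KC-LC replicate 3, any MG-LC replicate or PM-LC replicates 2 and 3. For Csf2rb2 it was 1.86 ± 0.50 (adjusted p = 0.0134), from changes of -1.71, -1.20, -3.22 and -0.19, and was lost without AM-LC replicate 2 (1.59, adjusted p = 0.0555). For Csf3r it was 4.11 ± 0.90 (adjusted p = 0.00329), from changes of 2.95, 0.77, 2.01 and 6.01; limma-voom gave 5.41 (adjusted p = 0.0525), and without AM-LC replicate 1 it was 5.69. For Csf1 it was -8.19 ± 1.27 (adjusted p = 0.000149), from changes of -0.65, 1.18, -1.53 and -8.54, and ran from -8.81 to -7.59 when single libraries were left out. The cultures of AMs and of the other tissues differed in factor, oxygen and glucose together, which cannot be told apart here.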

How the results depend on the processing

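Over 76 results for single genes and 1419 values under alternatives, 1289 kept their direction and side of the threshold, 78 lost a call, 25 gained one and 27 changed sign. With the 3 fibroblast-rich libraries left out (an alternative chosen after the data were seen), Csf1 turned to 0.87 in MG and 0.36 in PMs, Csf1r in MG-LCs against KC-LCs and PM-LCs turned to 0.12, and 6 genes were called in MG (share of all genes not given here). With a replicate block, Csf1 in MG turned to 0.051 and Csf3r in KC-LCs against PM-LCs to 0.018, the calls of Csf1r in MG (3.19, adjusted p = 0.0523) and Csf1 in AM-LCs (3.14, adjusted p = 0.0828) were lost, and Csf2ra in AM-LCs was called (1.13, adjusted p = 0.0403); the same numbers did not pair libraries (r from -0.104 to 0.056 over 12 pairs, 0 above 0.1, 4 best with their own number), and the block called 0.0135% of genes between KC-LCs and PM-LCs. The number of genes called was 1 in KCs, 0 in sorted KCs and 1 in sorted PMs with the log2 threshold of 1.5, 2 in sorted KCs and 2 in sorted PMs with all 24 libraries fitted, and 1 between KC-LCs and PM-LCs by DESeq2. Leaving out 1 library gave 0 to 6 calls in MG, 1 to 3 in KCs and 2 to 5 in AM-LCs. For most of these fits the share of all genes called is not given here, so the counts are not set against it. Leaving out 1 library moved the log2 difference of Csf1 from -1.07 to 0.87 and of Csf2ra from -0.62 to 0.25 in MG, of Csf1 from -2.06 to 0.36 and of Csf2ra from -0.42 to 0.094 in PMs, and of Csf2rb from -0.20 to 0.025 and Csf2rb2 from -0.46 to 0.016 in AMs. In sorted KCs it moved Csf2rb2 from -0.44 to 0.093 and Csf1 from -0.044 to 0.88. In AM-LCs it moved Il34 from -5.42 to 0.46 and Csf2rb2 from -0.36 to 0.10; in MG-LCs Csf1r from -0.39 to 0.27, Csf1 from -0.081 to 2.45 and Csf3r from -0.58 to 0.74; between KC-LCs and PM-LCs Csf3r from -0.41 to 0.39; and in the interaction Csf2rb from -0.014 to 0.30. The cause was not tested. Apart from fits that left out 1 library, which are not listed here, the share of all genes called moved by over 1.5 times from the shares given above in these cases. Without a filter, which tests more genes, it was 22.6%, 18.0%, 15.8% and 26.5% for sorted against cultured MG, KCs, PMs and AMs, 29.6%, 22.7%, 19.8% and 25.5% among the sorted cells in the same order, 6.35% for AM-LCs, 0.0659% for MG-LCs, 0.240% between KC-LCs and PM-LCs and 8.38% in the interaction. With the log2 threshold these shares were 29.8%, 22.3%, 17.7% and 21.5%, then 26.4%, 18.1%, 16.6% and 23.3%, 7.26% for AM-LCs and 11.4% in the interaction. With all 24 libraries fitted it was 28.8% for AMs, 5.58% for MG-LCs and 2.57% between KC-LCs and PM-LCs, which the filter on CPM put at 0.334% and the fit without fibroblast-rich libraries at 0.479%. DESeq2 called 3144 genes for AM-LCs (1939 by edgeR), 1012 for MG-LCs (0) and 1004 between KC-LCs and PM-LCs (16). The median over all genes in the interaction was -0.03 with TMM and -0.13 with DESeq2. Il34 and Csf2 passed the filter on low counts in no comparison of sorted with cultured cells.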
